A study of Mus musculus with 4 samples.

Results

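The 10 genes described here encode the chains of MHC class I molecules of the mouse: 9 heavy chains of the H2 complex (H2-K1, H2-D1, H2-Q4, H2-Q6, H2-Q7, H2-T22, H2-T23, H2-T24 and H2-M3) and B2m, the light chain beta-2 microglobulin. They were chosen by gene symbol from a table of 55401 genes, and all 10 had enough counts to be among the 17260 genes tested. The cells were bone marrow-derived macrophages of C57BL/6 mice, 8 weeks old, differentiated with M-CSF and kept for 24 h with MC38, a colon carcinoma line of the same strain. The 2 knockout libraries (numbered 1 and 3) came from LysM-cre, Mettl3fl/fl mice, and the 2 control libraries (also numbered 1 and 3) from Mettl3fl/fl mice without the driver, so that both genotypes carried the floxed Mettl3 allele. LysM-cre acts in cells of the myeloid lineage, and Mettl3 is the catalytic subunit of the enzyme that writes N6-methyladenosine (m6A) on mRNA. Whether MC38 cells were removed before RNA extraction, and whether each library came from 1 mouse, is not stated in the labels. Poly(A) RNA was sequenced, and the question asked of these genes is whether their levels differed between the genotypes.

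A class I molecule is a heavy chain that folds with beta-2 microglobulin around a short peptide in the endoplasmic reticulum and carries it to the cell surface. The classical chains H2-K1 and H2-D1 display peptides of the cell's own proteins to CD8 T cells on almost every nucleated cell, while the nonclassical chains of the Q, T and M regions are less variable and serve more specialised ligands and receptors. Transcription of class I genes is known to be induced by interferons and by NF-kappa B, and to depend on the transactivator Nlrc5 acting through conserved promoter boxes.

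All heavy chain genes lie on chromosome 17, where the distance from the start of H2-K1 to the end of H2-M3 was 3.28 Mb in the coordinates of the deposited table. H2-K1 (33996017 to 34000347, minus strand) stands apart from H2-D1 (35262730 to 35267499, plus strand) by 1.26 Mb. The Q genes follow H2-D1 closely, with 9.1 kb between H2-Q6 and H2-Q7. The T genes form a tight group in which H2-T23 (36029773 to 36032855) is separated from H2-T24 by 9.21 kb and from H2-T22 by 4.27 kb. H2-M3 (37270220 to 37274484) is the outermost, and B2m (122147686 to 122153083) is on chromosome 2. For 9 of the 10 genes the start and end were those of GENCODE M21 (GRCm38).

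The heavy chains are copies of one another, which bears on how reads are assigned. Between the longest protein-coding transcripts, H2-Q6 and H2-Q7 were 89.1% identical and H2-K1 and H2-D1 87.3%, over the aligned bases. Of all windows of 150 bases (the read length, per the labels) in the annotated transcripts, none of those of H2-K1, H2-T24, H2-M3 or B2m occurred in a transcript of another gene. The share that did was 0.331% in H2-T23, 1.35% in H2-D1 (with H2-Q1) and 5.99% in H2-Q6 (with H2-Q7). It was 5.9% in H2-Q7 (of all its windows, 2.87% with H2-Q10), 9.87% in H2-Q4 (with Gm11131) and 22.3% in H2-T22. Nearly all of the shared windows of H2-T22 matched A930015D03Rik, an opposite-strand gene that spans the T group, and this gene stood at 0 CPM in both knockouts and at 0 and 0.0807 CPM in controls 1 and 3. Reads that match several places could be split among genes in a way the deposited counts do not show, so the Q genes are also given as a sum. The sum keeps together reads that H2-Q6 and H2-Q7 share. It does not hold H2-Q10 or Gm11131, an opposite-strand gene that overlaps H2-Q4.

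The stretches before the transcription start are printed because the heavy chains resemble each other there as well. The promoter table, made from RefSeq (GRCm38.p6), held 9 of the 10 genes, with no entry for H2-T24. For H2-K1, which had 2 starts there, only the first was used. In H2-D1 the 250 bases before the RefSeq start lay inside the deposited gene. In H2-T23, H2-M3 and B2m they reached into it. Which matches are found thus depends on the start used. The 250 bases upstream of the start were searched on both strands for GAAA followed, after any 2 bases, by GAAA (the core of the interferon-stimulated response element, ISRE), CCAAT (Y box), TGACGC and TGACGT (X2 or CRE-like sites), the NF-kappa B consensus, and GTTTCNCTT, which was added after the promoters had been read. Capitals mark the matches, on either strand, in H2-K1 chr17:34000348-34000597 (minus strand), H2-Q6 chr17:35424600-35424849 (plus strand), H2-Q7 chr17:35438905-35439154 (plus strand), H2-T22 chr17:36042743-36042992 (minus strand), H2-M3 chr17:37269984-37270233 (plus strand) and B2m chr2:122147437-122147686 (plus strand).
H2-K1: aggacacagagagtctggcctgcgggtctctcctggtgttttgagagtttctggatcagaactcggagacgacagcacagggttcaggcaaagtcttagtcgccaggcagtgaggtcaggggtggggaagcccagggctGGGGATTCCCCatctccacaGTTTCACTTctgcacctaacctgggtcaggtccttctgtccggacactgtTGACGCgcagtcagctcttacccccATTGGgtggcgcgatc
H2-Q6: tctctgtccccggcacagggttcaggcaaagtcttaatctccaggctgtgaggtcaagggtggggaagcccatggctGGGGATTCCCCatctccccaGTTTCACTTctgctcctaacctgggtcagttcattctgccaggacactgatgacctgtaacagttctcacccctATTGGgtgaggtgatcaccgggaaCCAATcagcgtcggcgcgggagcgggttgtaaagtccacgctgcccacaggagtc
H2-Q7: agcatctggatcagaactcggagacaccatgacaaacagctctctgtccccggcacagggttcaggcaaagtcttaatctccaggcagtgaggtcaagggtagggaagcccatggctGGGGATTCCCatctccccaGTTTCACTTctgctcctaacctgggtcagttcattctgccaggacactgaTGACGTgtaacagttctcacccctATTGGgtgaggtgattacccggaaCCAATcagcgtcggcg
H2-T22: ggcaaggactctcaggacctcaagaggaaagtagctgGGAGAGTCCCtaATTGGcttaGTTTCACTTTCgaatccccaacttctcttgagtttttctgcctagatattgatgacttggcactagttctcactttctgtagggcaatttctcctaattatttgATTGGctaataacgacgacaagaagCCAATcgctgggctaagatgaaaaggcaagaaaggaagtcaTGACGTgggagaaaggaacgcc
H2-M3: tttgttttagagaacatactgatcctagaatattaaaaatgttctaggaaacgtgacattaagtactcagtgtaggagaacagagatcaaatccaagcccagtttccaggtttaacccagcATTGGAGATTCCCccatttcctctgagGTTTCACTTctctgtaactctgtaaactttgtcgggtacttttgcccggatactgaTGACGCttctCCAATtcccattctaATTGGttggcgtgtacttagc
B2m: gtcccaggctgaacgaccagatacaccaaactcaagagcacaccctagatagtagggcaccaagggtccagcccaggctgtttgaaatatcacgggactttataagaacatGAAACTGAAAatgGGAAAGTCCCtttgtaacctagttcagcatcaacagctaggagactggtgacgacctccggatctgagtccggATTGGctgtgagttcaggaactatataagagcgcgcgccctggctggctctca
A CCAAT box was present in 9 of the 9 promoters, against 34.5% of 27025 mouse promoters, and the NF-kappa B consensus in 8 of them, with H2-T23 the exception, against 3.75%. GTTTCNCTT was present in 7 of the 9 (all but B2m and H2-T23), and in 1.54% of all promoters. As this motif was chosen from these same promoters, several of them near copies, the 2 shares cannot be read as an enrichment. The shares of the other motifs rest on the same near copies and do not count independent promoters either. Between H2-K1, H2-D1, H2-Q4, H2-Q6 and H2-Q7 the aligned promoter bases were 83.8% to 97.6% identical. The ISRE core was searched for only in the form given above. A promoter without this form was thus not shown to lack an interferon element. Whether the motif added after the promoters had been read acts as such an element was not tested. The ISRE core in the form searched was present in B2m, H2-T22 and H2-T23, against 3.04%. In H2-T22 it overlaps GTTTCNCTT, and in H2-M3 a CCAAT match overlaps the NF-kappa B match. TGACGC was found in H2-K1, H2-D1 and H2-M3 (6.14% of all promoters) and TGACGT in H2-Q4, H2-Q7 and H2-T22 (6.56%). The aligned promoters of H2-Q6 and H2-Q7 were 97.6% identical. These matches describe the letters and are no evidence of binding.

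Before the comparison, the libraries themselves were examined. Total counts were 62563556 and 79209870 in knockouts 1 and 3 and 55100415 and 61075754 in controls 1 and 3. Ddx3y, a Y-linked gene, stood at 89.06 and 0.139 CPM (counts scaled to library size) in knockouts 1 and 3 and at 72.09 and 0.307 CPM in controls 1 and 3, so that library number coincides with a difference of sex pattern, and values within each number are given beside the pooled ones. Mettl3 stood at 13.85 and 19.57 CPM in knockouts 1 and 3 and at 18.3 and 23.22 CPM in controls 1 and 3. The groups overlapped, while the log2 difference, knockout over control, was -0.40 within number 1 and -0.25 within number 3. Since a count over the whole gene may include exons outside the deleted part, these values do not check the labels. All 10 macrophage markers were detected, with Lyz2 the most abundant. Of 10 epithelial and carcinoma markers, 7 had 0 counts in every library, Epcam, Krt8 and Krt18 among them. The summed level of that list was 1.33 and 0.910 CPM in knockouts 1 and 3 and 0.460 and 0.953 CPM in controls 1 and 3. In T and NK cell markers, Cd3e, Cd8b1, Trbc2, Gzma and Prf1 were at 0 in every library, and 2 of 10 were tested. That list summed to 24.98 and 23.54 CPM in knockouts 1 and 3 and to 17.21 and 23.95 CPM in controls 1 and 3. Nearly all of this was Cd4, at 24.49 and 23.13 CPM in knockouts 1 and 3 and at 17.07 and 23.8 CPM in controls 1 and 3. Fibroblast markers summed to 361.7 and 589.6 CPM in knockouts 1 and 3 and to 461.1 and 920.2 CPM in controls 1 and 3, with all 10 below 0 on the fold change scale in both numbers. Dendritic cell markers, 5 of 8 tested and with Cd209a at 0, summed to 12.67 and 30.89 CPM in knockouts 1 and 3 and to 9.09 and 15.36 CPM in controls 1 and 3. The part of the fibroblast and dendritic cell lists in the results below was not tested, and in bulk RNA more cells of a type and more RNA per cell cannot be told apart.

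Every class I chain had a higher mean level in the knockout macrophages, with the widest gaps in the T region genes H2-T24 and H2-T22 and the smallest in H2-D1, but edgeR called none of them. All 10 genes had a log2 fold change (knockout over control) above 0, between 0.13 for H2-D1 and 0.99 for H2-T24 (an error after ± on this scale is edgeR's SE, with n = 2 libraries per group), where 49.8% of all tested genes lay above 0. The median over the 10 was 0.32, and that over all tested genes was -0.001. The test, edgeR's quasi-likelihood test adjusted over all genes, called 0 of the 10 (each with an edgeR adjusted p of 1) and 0% of all genes, with 391 of 17260 genes at an unadjusted p under 0.05. An unadjusted edgeR p under 0.05 with a higher knockout level was found for H2-T22 and H2-T24, 2 of the 10, against 1.3% of all genes. With DESeq2, H2-T24 was called (DESeq2 adjusted p = 0.029), 1 of the 10. DESeq2 called 39 of the 17260 tested genes higher, and 0.168% of the 25066 genes it fitted without the filter. The median was 0.603 without knockout 1 and 0.109 without knockout 3, so its size depended on which library was present. Both knockouts exceeded both controls for H2-D1, H2-T22, H2-T24 and H2-M3, 4 of the 10, against 13.1% of all tested genes, and 0 of the 10 had both knockouts below both controls, against 13.4%. For 7 of the 10 (all but H2-Q4, H2-Q6 and H2-Q7) the knockout was higher within number 1 and within number 3, against 25.6%.

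**Figure D1:**
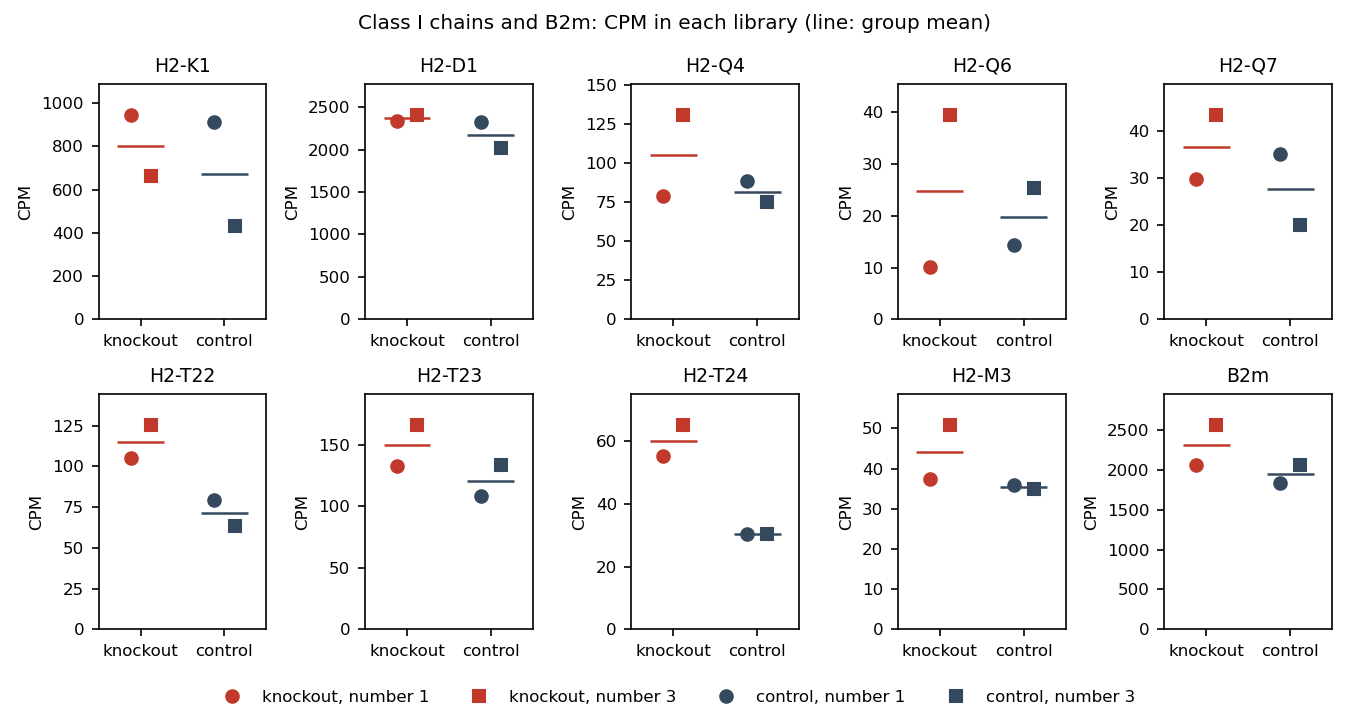
CPM of the 10 class I genes (one panel each, y axis from 0) in the 2 knockout and 2 control libraries; circles are libraries numbered 1, squares those numbered 3, and lines are group means. The knockouts lie above the controls without overlap for H2-T24 (55.12 and 65.15 against 30.23 and 30.45) and H2-T22, while the Q genes overlap.

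H2-T24, a heavy chain gene of the T region, stood apart from the other members. It had 55.12 and 65.15 CPM in knockouts 1 and 3, against 30.23 and 30.45 CPM in controls 1 and 3. Both knockouts were clearly above both controls, and the controls were almost equal. The fold change was 1.98, on the log2 scale 0.99 ± 0.17 (edgeR unadjusted p = 0.0029, rank 24 of 17260 genes). A larger fold change was found for 3.64% of tested genes. Within number 1 the log2 difference was 0.87 and within number 3 it was 1.10, and leaving out any 1 library kept it between 0.861 and 1.12. No 150-base window of its transcripts occurs in another annotated gene.

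H2-T22, a chain recognised by gamma delta T cells without need of a bound peptide, had 104.9 and 125.4 CPM in knockouts 1 and 3, against 79.42 and 63.23 CPM in controls 1 and 3. Again the groups did not overlap, and the gap was widest within number 3. The log2 fold change of H2-T22 was 0.69 ± 0.20 (edgeR unadjusted p = 0.0194). Number 1 gave 0.40 and number 3 gave 0.99. H2-T23 encodes Qa-1, which shows leader peptides of other class I chains to the CD94/NKG2A receptor of NK cells. It had 133.0 and 166.2 CPM in knockouts 1 and 3, against 108.4 and 133.3 CPM in controls 1 and 3. Knockout 1 and control 3 were level, so the groups touched, but within each number the knockout was higher by a similar step, 0.30 and 0.32 on the log2 scale. Summed over the T genes, the level was 293.1 and 356.7 CPM in knockouts 1 and 3 and 218.1 and 227.0 CPM in controls 1 and 3, a log2 difference of 0.55.

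The classical chains carried most of the heavy chain mRNA; H2-D1 differed little between genotypes, and the estimate for H2-K1 was imprecise. H2-D1 had 2337 and 2406 CPM in knockouts 1 and 3, against 2328 and 2015 CPM in controls 1 and 3. Knockout 1 and control 1 were almost equal, so that the absence of overlap rests on a very small gap. Pooled, the log2 value was 0.13 ± 0.20; number 1 alone gave 0.01 and number 3 alone 0.26. H2-K1 had 943.9 and 662.1 CPM in knockouts 1 and 3, against 912.2 and 433.6 CPM in controls 1 and 3. Here library number separated the values more than genotype: in both genotypes the library numbered 3 was the lower, by 0.51 on the log2 scale in the knockouts and by 1.07 in the controls. H2-K1 was the only member lower in number 3 in both genotypes. H2-K1 had a pooled log2 value of 0.26 ± 0.42, number 1 alone gave 0.05 and number 3 alone 0.61, and the pooled value was below 0 without knockout 1 (-0.00575) and without control 3 (-0.181).

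The Q genes had differences of opposite sign in the library numbers. H2-Q6 and H2-Q7 encode Qa-2, a class I protein held in the membrane by a lipid anchor, and H2-Q4 is their neighbour in the Q region. H2-Q4 had 79.1 and 130.8 CPM in knockouts 1 and 3, against 88.42 and 75.08 CPM in controls 1 and 3. H2-Q6 had 10.03 and 39.41 CPM in knockouts 1 and 3, against 14.25 and 25.42 CPM in controls 1 and 3. For H2-Q7 the values were 29.78 and 43.26 CPM in knockouts 1 and 3, against 35.13 and 20.01 CPM in controls 1 and 3. In each of them knockout 3 was the highest library and knockout 1 lay below control 1. The log2 difference within number 1 was -0.16 for H2-Q4, -0.51 for H2-Q6 and -0.24 for H2-Q7, and within number 3 it was 0.80, 0.63 and 1.11 in the same order. Pooled log2 fold changes were 0.36 ± 0.29, 0.32 ± 0.71 and 0.41 ± 0.36 in that order. Without knockout 3 the fold change of H2-Q6 was -0.985 and that of H2-Q4 was -0.048, and H2-Q6 stood at -0.0276 without control 1. The sum of H2-Q6 and H2-Q7 was 39.81 and 82.66 CPM in knockouts 1 and 3, against 49.38 and 45.42 CPM in controls 1 and 3, with -0.31 within number 1 and 0.86 within number 3. Summed over all 3 Q genes, the level was 118.9 and 213.5 CPM in knockouts 1 and 3, against 137.8 and 120.5 CPM in controls 1 and 3, with -0.21 within number 1 and 0.83 within number 3. Both sums had opposite signs in the library numbers, and the part of read assignment in this was not tested.

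H2-M3, which displays peptides that begin with N-formylmethionine from bacteria and mitochondria, had 37.3 and 50.86 CPM in knockouts 1 and 3, against 35.92 and 34.99 CPM in controls 1 and 3. Knockout 1 was barely above the controls and knockout 3 well above them. On the log2 scale this was 0.31 ± 0.21 pooled, 0.05 in number 1 and 0.54 in number 3. B2m had 2064 and 2562 CPM in knockouts 1 and 3, against 1831 and 2065 CPM in controls 1 and 3. Knockout 1 and control 3 were level, and knockout 3 was the highest. The log2 difference of B2m was 0.25 ± 0.22 pooled, 0.17 in number 1 and 0.31 in number 3. The opposite-strand gene Patl2, which overlaps it, had at most 0.608 CPM in any library.

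**Figure D2:**
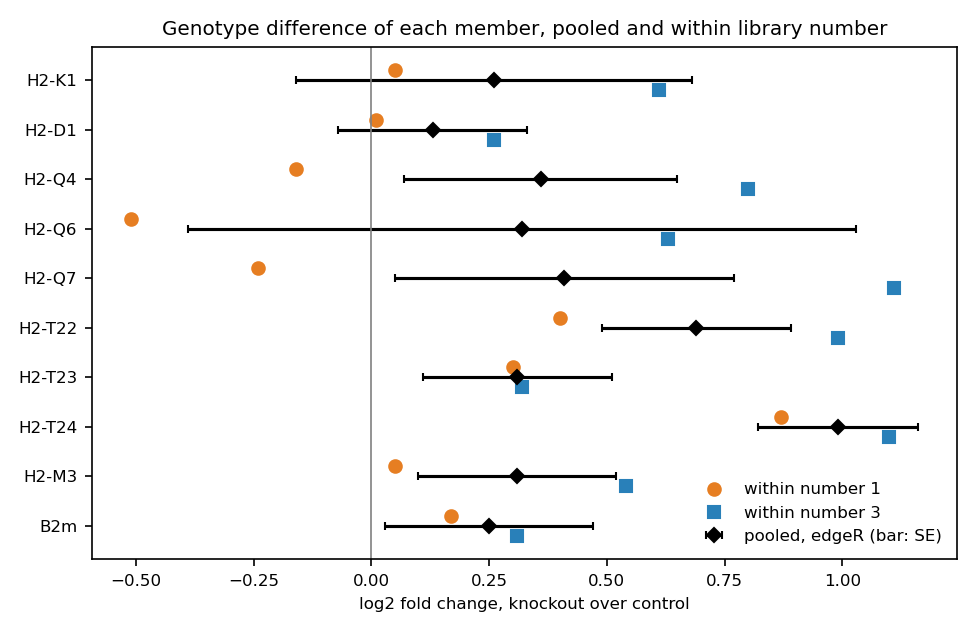
Log2 fold change of each class I gene, knockout over control (x axis), pooled (diamonds, edgeR, bars are SE) and within library number 1 (circles) or 3 (squares, 1 library per genotype each). H2-T24 is highest at 0.99, the 3 Q genes lie below 0 within number 1, and every square lies to the right of its circle.

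For all 10 genes the difference between knockout and control was larger within number 3 than within number 1, against 48.2% of all tested genes. The median over the members was 0.05 within number 1 and 0.62 within number 3. H2-T23 had the smallest gap between the numbers and H2-Q7 the largest. With 1 library per genotype in each number, this difference between the numbers could not be tested, and number, sex pattern and any other property of these libraries cannot be told apart.

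Levels of different genes were compared per length, on the deposited FPKM scale (fragments scaled for gene length and library size). B2m was the highest at a mean of 2227 FPKM over the 4 libraries, followed by H2-D1 at 791.4 and H2-K1 at 225.4 FPKM, and their ranges over the libraries did not overlap. H2-T23 (mean 42.07 FPKM), H2-Q4 (32.28), H2-M3 (24.84), H2-T22 (24.51), H2-T24 (18.61), H2-Q6 (9.60) and H2-Q7 (6.73) followed, each with a range that overlapped that of its neighbour. H2-D1 made up 64.8% and 66.8% of the summed heavy chain FPKM in knockouts 1 and 3, and 66.3% and 72.5% in controls 1 and 3. The share of H2-K1 was 23% and 16.1% in knockouts 1 and 3, and 22.8% and 13.7% in controls 1 and 3, so it went with library number. The 7 nonclassical chains together held 12.2% and 17.1% in knockouts 1 and 3, and 10.9% and 13.8% in controls 1 and 3. Within each number the nonclassical share was higher in the knockout.

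The summed heavy chain level was slightly higher in the knockouts, by an amount that depended on control 3. In counts it was 3730 and 3690 CPM in knockouts 1 and 3, and 3632 and 2831 CPM in controls 1 and 3, which gives 3710 ± 28.3 and 3232 ± 566 CPM (SD, n = 2 each). The log2 difference was 0.20, with 0.04 within number 1 and 0.38 within number 3, and the knockouts lay above both controls. It was 0.397 without control 1 and 0.0343 without control 3, so control 3, the lowest library, sets most of it. An exact permutation test of 2 against 2 cannot go below p = 0.333 (two-sided), so none was read. The ratio of B2m to the summed heavy chains, on the FPKM scale, was 1.72 and 2.13 in knockouts 1 and 3, and 1.56 and 2.23 in controls 1 and 3. It separated the library numbers rather than the genotypes.

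**Figure D3:**
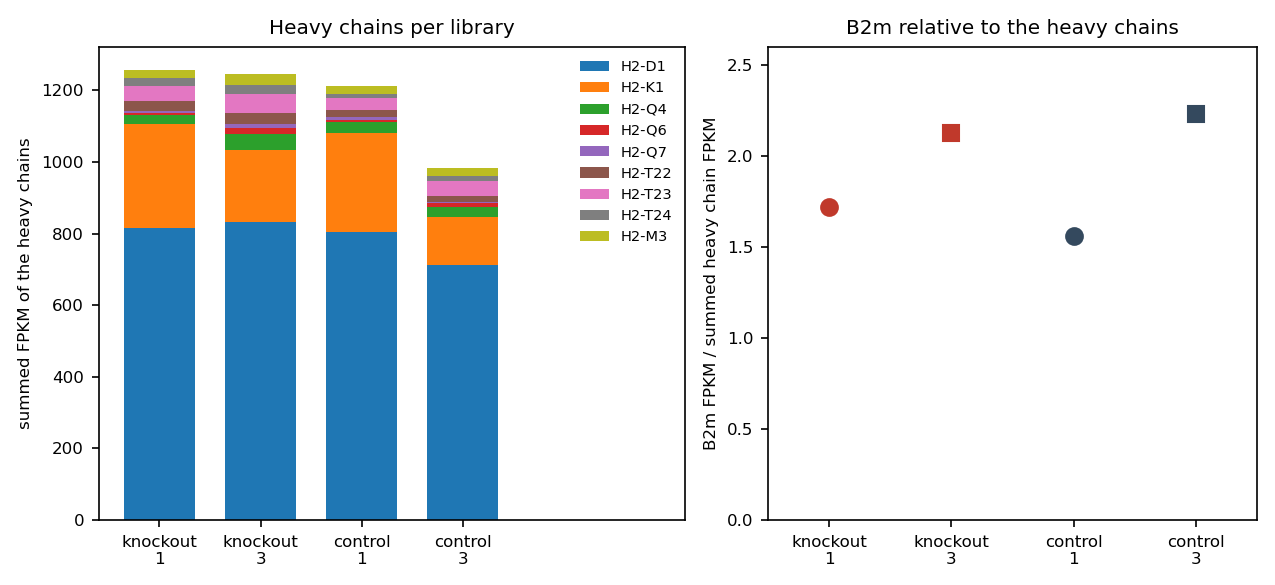
Left, FPKM of the 9 heavy chains stacked per library (y axis in FPKM, from 0); right, B2m FPKM divided by their sum (circles number 1, squares number 3). H2-D1 is the largest block in every library, H2-K1 is smaller in the libraries numbered 3, and the ratio is 1.72 and 1.56 in number 1 against 2.13 and 2.23 in number 3 (knockout, then control).

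Genes that supply and load class I peptides were set beside the members, from lists chosen with earlier results of these data known. In the peptide loading list all 8 tested genes had a fold change above 0, in both numbers, their median being 0.32 (number 1, 0.28; number 3, 0.41), and edgeR called 0 of them. Tap1, a subunit of the peptide transporter, had 65.61 and 84.6 CPM in knockouts 1 and 3, against 36.27 and 37.49 CPM in controls 1 and 3. Both knockouts were well above both controls, and DESeq2 called it higher (DESeq2 adjusted p = 0.0422; log2 fold change 1.03 ± 0.19). Tapbp, which bridges the transporter and the heavy chain, had 271.9 and 157.1 CPM in knockouts 1 and 3, against 144.6 and 126.9 CPM in controls 1 and 3. The chaperone Calr had 1147 and 1777 CPM in knockouts 1 and 3, against 937.7 and 1405 CPM in controls 1 and 3, so that the groups overlapped and both libraries numbered 3 were the higher. Pdia3, an oxidoreductase of the loading complex, had 818.8 and 1076 CPM in knockouts 1 and 3, against 674.5 and 754.4 CPM in controls 1 and 3.

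The immunoproteasome cuts proteins to peptides of a length that class I can hold, and PA28 is an activator of it. All 6 listed subunits of the 2 had a fold change above 0 (median 0.34, and 0.35 within each number). The lowest was Psme3 at 0.03 on the log2 scale, and edgeR called 0. Psmb8, a catalytic subunit, had 88.42 and 107.4 CPM in knockouts 1 and 3, against 58.38 and 77.54 CPM in controls 1 and 3. Psme2, a PA28 subunit, had 83.77 and 106.0 CPM in knockouts 1 and 3, against 57.99 and 78.73 CPM in controls 1 and 3. For both genes the 2 knockouts lay above the 2 controls. The constitutive counterparts Psmb5, Psmb6 and Psmb7 had log2 fold changes of 0.05 to 0.12, and their groups overlapped.

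Of the 16 transcriptional regulators of class I, 9 had a fold change above 0 and 7 below it, with a median of 0.05 and 0 called by edgeR. Stat2, a transcription factor of the type I interferon response, had 259.2 and 283.6 CPM in knockouts 1 and 3, against 180.5 and 113.9 CPM in controls 1 and 3. Both knockouts lay above both controls (log2 fold change 0.88 ± 0.27; edgeR unadjusted p = 0.0244). The 40 interferon-stimulated genes had a median log2 fold change of 0.83, with 40 above 0, 33 with both knockouts above both controls (13.1% of all tested genes), 0 called by edgeR and 9 called higher by DESeq2 (0.168% of all genes). This list was chosen with earlier results of these data known, so its counts are not independent of them. The class I members had a lower median (0.32) than this list in the same libraries, without a test of that difference. Ifit2 had 57.57 and 96.12 CPM in knockouts 1 and 3, against 19.96 and 20.88 CPM in controls 1 and 3, and Lgals3bp, the most abundant of the list, 989.3 and 1056 CPM against 771.1 and 588.8 CPM.

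Class II presentation genes, whose products display peptides to CD4 T cells, gave a different picture. Of 10 tested, 5 had a fold change above 0 and 5 below it (median 0.06; number 1, 0.13; number 3, 0.14), and edgeR called 0. Cd74, the invariant chain, had 247.5 and 117.2 CPM in knockouts 1 and 3, against 314.0 and 164.1 CPM in controls 1 and 3. H2-Ab1 had 102.2 and 24.83 CPM in knockouts 1 and 3, against 81.85 and 20.97 CPM in controls 1 and 3. In both the libraries numbered 3 were the lower, and the list's median difference between number 3 and number 1 was -1.49 on the log2 scale, against 0.17 for the class I members. B cell markers also went with number, summing to 54.53 and 4.98 CPM in knockouts 1 and 3 and to 40.7 and 7.48 CPM in controls 1 and 3, with Ighm, the highest of them, at 44.32 and 2.33 CPM in knockouts 1 and 3 and at 35.24 and 4.41 CPM in controls 1 and 3. The part of B cell RNA in the class II values was not tested.

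**Figure D4:**
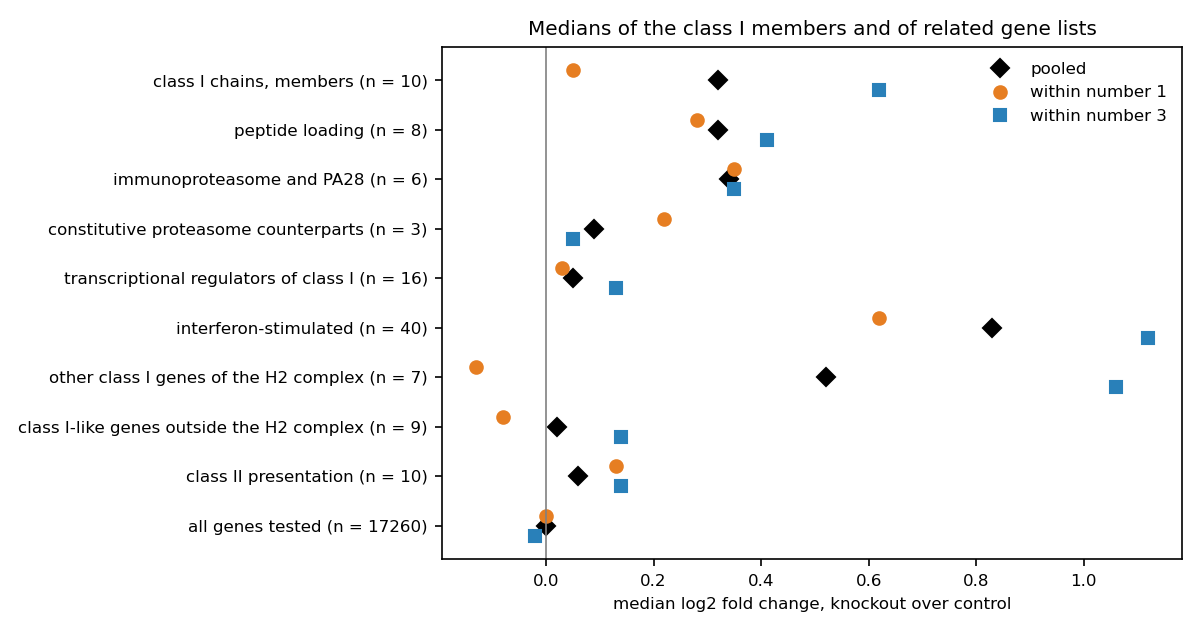
Median log2 fold change, knockout over control (x axis), of the class I members, of 8 related gene lists and of all tested genes, pooled (diamonds), within number 1 (circles) and within number 3 (squares); n is the number of genes tested. The members have a median of 0.32, the interferon-stimulated list one of 0.83 and class II presentation one of 0.06.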

How the data were processed

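RNA from 2 knockout and 2 control macrophage libraries was measured, and the series text calls them biological replicates. The authors deposited 1 table with estimated counts and FPKM for every gene and library, per the file headers; the counts were whole and not normalized, so the rounding step altered none of them. The deposited FPKM values carry the authors' own scaling for length and depth. The submitters' processing notes name cutadapt 1.9, HISAT2 2.0.4, StringTie 1.3.4d, edgeR and DESeq2; the genome build, the use of strand in counting and the treatment of reads with several matches are not given in the sources used here. Multiples of 4 made up 38.7% to 39.5% of low counts, so how many fragments 1 count stands for is unclear; 12 counts correspond to 0.152 to 0.221 CPM, and such limits cover counting error only. A further 4 value columns matched no sample and were not used.

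Counts were tested with edgeR 4.0.16 (R 4.3.3; TMM, filterByExpr, quasi-likelihood, two-sided, Benjamini-Hochberg over 17260 genes, threshold 0.05), the SE being the log2 fold change over the root of F; DESeq2 1.42.0 and limma 3.58.1 on log2(FPKM + 1) or log2(FPKM + 0.1) were alternatives. Other scalings, no filter, counts divided by 4, a fit with replicate number as a block, and fits lacking 1 library, were also tried. On simulated counts for the 17260 genes of this comparison, edgeR recovered 0% of genes changed 2-fold, 0% of those changed 4-fold and 16.4% of those changed 8-fold, with 0 false calls. DESeq2 recovered 7.89%, 58% and 65.5%, with 11 false calls, and edgeR with the replicate block 30.3%, 71% and 78.2%, with 56 false calls. Unchanged genes were drawn with the same mean in both genotypes within a number, and dispersions came from the blocked fit. The blocked model was thus correct by construction, which the real libraries need not meet. The members and lists were chosen with earlier results of these data known. Beside the 10 members and Mettl3, the text names of each related list the 2 genes with the smallest p and the 2 with the highest mean FPKM, the highest or absent markers, and the 5 genes of most similar pattern; the other names (Ddx3y, neighbours and genes that share sequence) were chosen after their values were seen. Some genes that this rule names are not reported here. A planned comparison of proteins was replaced by transcripts, since no protein table was used here. Transcript windows were compared in GENCODE M21, and alignments used Biopython 1.88.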

Additional observations from a re-analysis of the deposited data

Results flagged for a closer look

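The 3 Q region genes differed between knockout and control in opposite directions in the libraries numbered 1 and 3. The log2 difference, knockout over control, was -0.16 within number 1 and 0.80 within number 3 for H2-Q4, -0.51 and 0.63 for H2-Q6, and -0.24 and 1.11 for H2-Q7. With 1 library per genotype in each number, this difference was not tested. The other 7 class I genes were above 0 in both numbers, but H2-D1 (0.01), H2-K1 (0.05) and H2-M3 (0.05) only barely so within number 1.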

How the results depend on the processing

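With DESeq2, 74 genes were called in place of 0 by edgeR, and 1 of the 10 members (H2-T24, log2 fold change 0.992, adjusted p = 0.029). Equal numbers share no stated origin; over all tested genes the deviations of equal-numbered libraries from their group means correlated at r = 0.419. With the replicate block, edgeR called 0 genes and 0 members (median of the members 0.314), and DESeq2 with the replicate block called 175 genes and 1 member, again H2-T24 (0.986, adjusted p = 0.0035). Leaving out 1 library, edgeR called 0 genes and 0 members each time. The number of members with every remaining knockout above every remaining control ranged from 5 to 9. A group of 1 library separates more easily, and the share of all genes was not computed for these fits. This count thus cannot be set against that of the main fit. The median of the members ranged from 0.109 to 0.603, and the summed heavy chain difference from 0.0343 to 0.397. In the same settings the fold change ranged from -0.181 to 0.895 for H2-K1, from -0.048 to 0.695 for H2-Q4 and from -0.985 to 1.01 for H2-Q6; leaving out a library mixes number with genotype. RLE scaling, total counts, no filter, counts divided by 4 and limma on FPKM left all 10 fold changes above 0. In these settings 4 or 5 of the 10 members had both knockouts above both controls, against 13.1% of all tested genes in the main fit. Each member had at least 627 counts in every library. Of simulated 2-fold changes, edgeR recovered 0%, DESeq2 7.89% (11 false calls over all fold sizes) and edgeR with the replicate block 30.3% (56 false calls). The simulated counts were drawn so that the blocked model held.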

Other observations

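Of 25 further class I genes of the H2 complex, 20 were in the table, 12 of them had 0 counts in every library and 7 were tested (median log2 fold change 0.52; -0.13 within number 1 and 1.06 within number 3; edgeR called 0). H2-M2, a nonclassical chain gene of the M region, had 5.07 and 243.4 CPM in knockouts 1 and 3, against 10.99 and 86.21 CPM in controls 1 and 3. It was low in both libraries numbered 1 and high in both numbered 3, with knockout 3 the highest, and on the log2 scale the genotypes differed by -1.12 in number 1 and by 1.5 in number 3. H2-T10, a close relative of H2-T22, had 8.77 and 8.07 CPM in knockouts 1 and 3, against 7.05 and 3.86 CPM in controls 1 and 3. H2-K2 had 10.76 and 10.31 CPM in knockouts 1 and 3, against 11.78 and 9.90 CPM in controls 1 and 3, and did not separate the groups. H2-Q10 stayed at 1.18 CPM or less.

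Class I-like genes outside the H2 complex (9 of 11 tested) had a median log2 fold change of 0.02, and edgeR called 0. Raet1d and Raet1e, stress ligands of the NK cell receptor NKG2D, were the only ones of this list with both knockouts below both controls, 2 of 9, against 13.4% of all tested genes. Raet1d had 4.10 and 3.35 CPM in knockouts 1 and 3, against 6.28 and 5.30 CPM in controls 1 and 3. Raet1e had 1.26 and 0.733 CPM in knockouts 1 and 3, against 1.75 and 2.29 CPM in controls 1 and 3. Hfe, a regulator of iron uptake that pairs with B2m, had 147.9 and 168.7 CPM in knockouts 1 and 3, against 159.6 and 151.8 CPM in controls 1 and 3. Fcgrt, the heavy chain of the neonatal Fc receptor, had 111.9 and 53.69 CPM in knockouts 1 and 3, against 68.26 and 48.89 CPM in controls 1 and 3.

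Of the receptors that bind class I, 4 of 12 were tested. The inhibitory receptor Pirb had 700.7 and 862.7 CPM in knockouts 1 and 3, against 851.5 and 885.1 CPM in controls 1 and 3, and Pira2, an activating relative, 96.75 and 79.27 CPM against 79.11 and 103.5 CPM. Cd160 stayed at 1.36 CPM or less.

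The mean centred log2 CPM profile of the 10 members was -0.03 and 0.41 in knockouts 1 and 3 and -0.12 and -0.26 in controls 1 and 3. The genes nearest to it over the 4 libraries, by root mean square distance on the log2 scale, were Taz (0.02), Nlrp1a (0.0244), Star (0.03), Rnf34 (0.0318) and Nudt7 (0.0323). With 4 libraries many genes lie close to any profile.

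GGACT, a short form of the sequence that the m6A writer prefers, occurred at 0 to 2.09 per kb in the longest protein-coding transcript of each member, highest in H2-M3 and absent in H2-T23, against a median of 1.02 per kb over 21425 genes. In H2-T24 it occurred at 1.37 per kb and in H2-K1 at 1.85 per kb. A match does not show that a site is methylated.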
